A study of Rattus norvegicus with 18 samples.

Results

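rno-miR-200a-3p, rno-miR-200b-3p and rno-miR-375-3p are 3 of the 401 mature miRNAs counted in small RNA libraries from rat liver, and were picked by their names in the deposited table. All 3 have a row there. The study set out to find miRNAs of the liver that differ with colesevelam in obese ZDF rats. There were 18 libraries, 6 in each of 3 groups: obese rats given colesevelam, obese rats given vehicle, and lean rats, for which the labels name no agent. The labels give liver tissue, an age of 8 weeks and the strain ZDF-Leprfa/Crl for every library, lean ones included. The lean rats are set apart by title and phenotype label, and their genotype at the leptin receptor is not stated. The sources used here do not give doses, the length of treatment or sex. The library descriptions also carry a number that some libraries of a group share, with 4 different numbers among the colesevelam libraries, 5 among the vehicle libraries and 4 among the lean libraries. What this number stands for is not stated. If libraries with the same number came from one animal, p-values over 6 libraries a group are too small, and each member is therefore also given with those libraries summed.

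ZDF rats carry the fa mutation of the leptin receptor and become obese and insulin resistant. Colesevelam is an oral resin that traps bile acids in the intestine and keeps them from returning to the liver. The miR-200 family lies in a pair of genomic clusters, is expressed in epithelial cells including those that line bile ducts, and represses the transcription factors ZEB1 and ZEB2, which switch epithelial cells toward a mesenchymal state. miR-375 is best known from pancreatic islets, where it restrains insulin secretion, and is also found in epithelia of the gut. A miRNA finds its targets mainly through its seed, bases 2 to 8 from the 5′ end, so miRNAs with the same seed share many predicted targets.

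The sequences below show how the members relate to each other and to the rest of the miR-200 family. They are written 5′ to 3′ as in the deposited table, which uses T for U, with the seed in capitals.
rno-miR-200b-3p: tAATACTGcctggtaatgatgac
rno-miR-429: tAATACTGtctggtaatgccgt
rno-miR-200c-3p: tAATACTGccgggtaatgatg
rno-miR-200a-3p: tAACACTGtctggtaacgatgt
rno-miR-141-3p: tAACACTGtctggtaaagatgg
rno-miR-375-3p: tTTGTTCGttcggctcgcgtga
The family has 2 seeds that differ at 1 base, T4C, read from miR-200b-3p to miR-200a-3p with positions counted from the 5′ end. Beyond the seed, these miRNAs differ at a further 3 positions (C9T, T17C and A22T). miR-200c-3p differs from miR-200b-3p at a single position, T11G, and miR-141-3p from miR-200a-3p at C17A and T22G. How reads with a mismatch were assigned is not given in the sources used here, so counts of miR-200b-3p against miR-200c-3p and of miR-200a-3p against miR-141-3p are uncertain to the extent that reads were shared. miR-375-3p has a seed of its own and a GC content of 54.5%, against 39.1% for miR-200b-3p, 40.9% for miR-200a-3p and a median of 45.5% over the 112 miRNAs tested.

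In the deposited table, whose genome build is not given in the sources used here, miR-200b-3p lies at chr5:176964182-176964204, miR-200a-3p at chr5:176963402-176963423 and miR-429 at chr5:176962364-176962385, all on the minus strand. miR-200a-3p starts 780 bases and miR-429 starts 1818 bases from miR-200b-3p. miR-200c-3p and miR-141-3p lie 429 bases apart on chromosome 4, and miR-375-3p at chr9:81930305-81930326, also on the minus strand. In RefSeq's GRCr8 assembly Mir200b, Mir200a and Mir429 stand between the genes C5h1orf159 and Ttll10, and Mir375 between Cryba2 and Cfap65. The RefSeq hairpins of the 3 members are shown because both arms of the miR-200b and miR-200a precursors are counted in the table. They are given 5′ to 3′ on the minus strand of GRCr8, with the annotated mature arms in capitals.
Mir200b, chr5:171931495-171931589: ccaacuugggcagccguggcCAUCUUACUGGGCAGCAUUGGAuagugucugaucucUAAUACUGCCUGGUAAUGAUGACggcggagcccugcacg
Mir200a, chr5:171930717-171930805: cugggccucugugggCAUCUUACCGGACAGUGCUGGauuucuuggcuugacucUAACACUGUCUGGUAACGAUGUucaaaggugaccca
Mir375, chr9:83906582-83906656: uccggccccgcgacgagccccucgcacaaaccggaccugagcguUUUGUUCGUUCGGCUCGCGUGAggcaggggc

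Depth differed between the groups. Colesevelam libraries held 32936 to 122880 miRNA counts and vehicle libraries 37909 to 147314, against 110353 to 881450 in lean libraries. Levels are CPM, a miRNA's counts scaled to one common total after TMM factors, which take the bulk of miRNAs as equal between libraries. A change is therefore a change against the bulk of the library's miRNAs. A library without a count can still hold up to the level of 3 counts, which is 29.9 to 84.3 CPM in colesevelam libraries, 19.5 to 74.5 CPM in vehicle libraries and 3.92 to 25.9 CPM in lean libraries. The tissue label was checked on 6 hepatocyte miRNAs, among them miR-122-5p, whose summed level was 265119 to 494857 CPM in colesevelam, 214449 to 351148 CPM in vehicle and 286900 to 481080 CPM in lean libraries.

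All 3 miRNAs had a higher mean level in lean livers than in either obese group, and for each of them the mean levels of colesevelam and vehicle livers differed by less than the spread between libraries. miR-200b-3p was 3.06-fold lower in colesevelam and 3.86-fold lower in vehicle livers than in lean livers. miR-375-3p was 2.09-fold lower in colesevelam and 2.06-fold lower in vehicle livers, a difference from lean that passed the test for colesevelam and did not for vehicle. miR-200a-3p was so scarce, with 4 counts in all 6 colesevelam libraries and 11 in all 6 vehicle libraries against 107 in the lean libraries, that it had to be tested apart from the others. In bulk liver, fewer cells that express a miRNA and less of it per cell cannot be told apart.

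**Figure D1:**
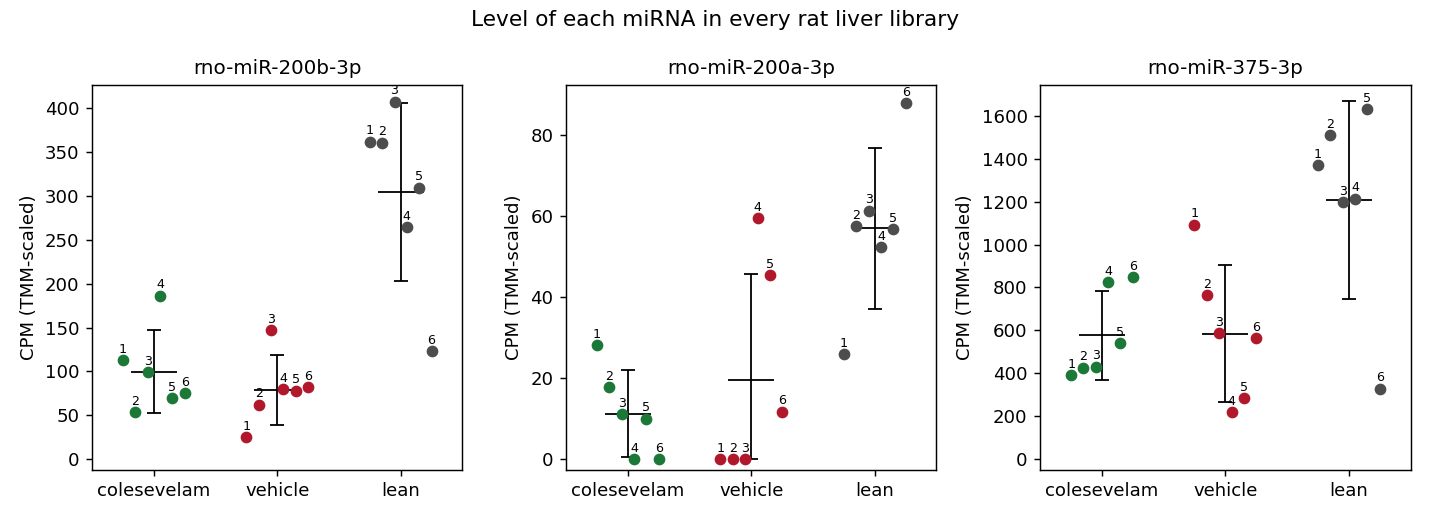
TMM-scaled CPM (vertical axes, each with its own range) of the 3 miRNAs in every library, numbered by replicate, with the mean and SD of 6 libraries a group as bars. For miR-200b-3p 5 of the 6 lean libraries lie above every library of the obese groups; for miR-375-3p lean library 6, at 329 CPM, lies among them.

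rno-miR-200b-3p, which represses ZEB1 and ZEB2 through the more abundant of the family's seeds, had 112, 53.3, 99.5, 186, 69.9 and 75.4 CPM in colesevelam libraries 1 to 6. It had 24.8, 62.0, 147, 79.3, 78.0 and 82.1 CPM in vehicle libraries 1 to 6. The lean libraries held 362, 361, 408, 264, 310 and 123 CPM. Lean library 6 was the low one of its group: colesevelam library 4 and vehicle library 3 lay above it, so the groups overlapped at that library alone. Means were 99.5 ± 47.6 CPM in colesevelam, 78.9 ± 39.6 CPM in vehicle and 305 ± 102 CPM in lean livers (SD, n = 6 each). By mean level it ranked 114th in colesevelam, 126th in vehicle and 81st in lean livers among the 401 rows.

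Against lean livers, the log2 fold change of miR-200b-3p was −1.68 ± 0.34 (SE) with colesevelam (95% interval −2.39 to −0.97, edgeR adjusted p = 0.00137). With vehicle it was −1.94 ± 0.35 (−2.66 to −1.23, edgeR adjusted p = 0.000653). These comparisons share the 6 lean libraries. In edgeR 9.82% of the 112 miRNAs tested were called lower in colesevelam than in lean livers and 2.68% lower in vehicle than in lean livers. miR-200b-3p had the lowest fold change of the 112 in vehicle livers and the second lowest in colesevelam livers. With both obese groups set against lean it was at −1.81 ± 0.27 (edgeR adjusted p = 6.21e-05), where 7.14% of miRNAs were called lower. With the libraries of one label number summed, the values were −1.67 with colesevelam (edgeR adjusted p = 0.0101) and −1.95 with vehicle (edgeR adjusted p = 0.00278).

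miR-200b-3p passed the filter on low counts mainly through the lean libraries: 5 of them, 1 vehicle and 1 colesevelam library lay over the 126 CPM that the filter asks for. The filter asks for as many libraries over that level as a group holds, so the lean libraries alone did not suffice. Passing mainly through lean libraries favours miRNAs that are higher in lean livers, so the place of miR-200b-3p among the tested miRNAs is not read as a result. The count itself was small in the obese groups, with 3 to 9 counts in a colesevelam library and 1 to 12 in a vehicle library, against 21 to 276 in a lean library. Summed over libraries there were 34 counts with colesevelam and 33 with vehicle, where the mean lean level would have given 114 and 128 at those depths. The pooled level was 91.1 CPM with colesevelam (exact 95% Poisson interval 63.1 to 127), 78.8 CPM with vehicle (54.2 to 111) and 319 CPM in lean livers (294 to 345).

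Lean libraries were deeper, and the part of depth in these differences can be read only where depths overlap. Vehicle library 5, with 147314 counts in all, held 12 counts of miR-200b-3p, and lean library 1, with 110353, held 42. After every library was thinned at random to 32936 counts, miR-200b-3p kept 2 to 6 counts in colesevelam, 0 to 5 in vehicle and 5 to 16 in lean libraries. An exact two-sided permutation test of these thinned counts, chosen after seeing the data, gave adjusted p = 0.0173 for colesevelam against lean (log2 ratio −1.12) and adjusted p = 0.0130 for vehicle against lean (log2 ratio −1.47). This was 1 random draw: the mean thinned counts were 3.83 in colesevelam, 3.00 in vehicle and 8.33 in lean libraries, where 3.21, 2.74 and 10.1 would be expected from the full counts. The p-values were adjusted over 4 comparisons, not over the 112 miRNAs as in edgeR. By that measure the difference from lean passed at equal depth, and both its p and its size carry the error of that draw.

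**Figure D2:**
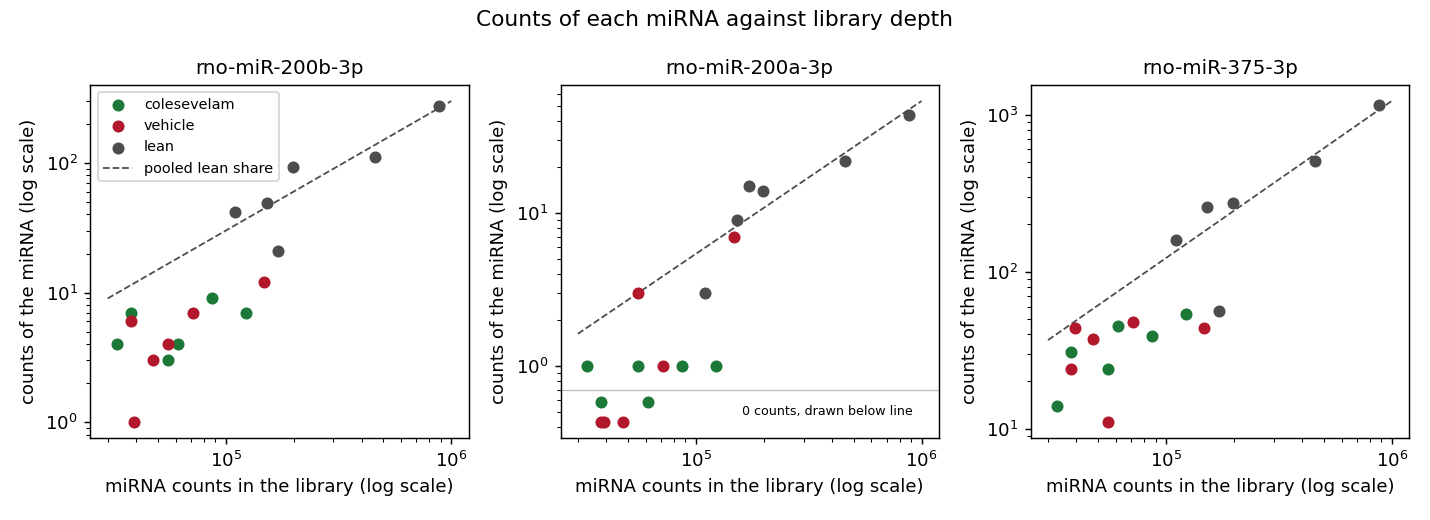
Counts of each miRNA (vertical, log scale) against the total of miRNA counts of its library (horizontal, log scale), 1 point per library; the dashed line is the share of the pooled lean libraries. For miR-200b-3p all 12 libraries of the obese groups lie below the line, including those as deep as the shallowest lean library.

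rno-miR-375-3p, the islet and gut epithelial miRNA, was the most abundant of the 3. It had 393, 427, 431, 826, 539 and 848 CPM in colesevelam libraries 1 to 6, and 1092, 765, 588, 218, 286 and 563 CPM in vehicle libraries 1 to 6. Lean libraries 1 to 6 held 1371, 1510, 1197, 1214, 1630 and 329 CPM. Lean libraries 1 to 5 lay above every colesevelam and vehicle library, while lean library 6 lay below all 6 colesevelam libraries and below 4 of the 6 vehicle libraries. Means were 577 ± 207 CPM with colesevelam, 585 ± 321 CPM with vehicle and 1208 ± 462 CPM in lean livers (SD, n = 6 each).

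The log2 fold change of miR-375-3p against lean was −1.07 ± 0.37 (SE) with colesevelam (95% interval −1.85 to −0.30, edgeR adjusted p = 0.0433). With vehicle it was also −1.07 ± 0.37 (−1.85 to −0.30, edgeR adjusted p = 0.110). The edgeR p-values before adjustment were 0.00889 and 0.00903 for colesevelam and vehicle, and they fell on different sides of the threshold after adjustment over the 112 miRNAs, of which 24 were called in the colesevelam and 7 in the vehicle comparison. With both obese groups against lean it was at −1.07 ± 0.31 (−1.71 to −0.43, edgeR adjusted p = 0.0240). All 18 libraries passed the filter's level for this miRNA, which held 11 counts in the lowest vehicle library.

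The call of miR-375-3p lay near the threshold and changed when single libraries were left out. Without lean library 6 the vehicle comparison passed (log2 fold change −1.27, edgeR adjusted p = 0.0161), as it did without vehicle library 1 (−1.33, edgeR adjusted p = 0.0318). The colesevelam comparison passed in 3 of the 12 fits that each leave out 1 library, those without colesevelam library 4, colesevelam library 6 or lean library 6. In the other 9, without colesevelam library 1, 2, 3 or 5 or lean library 1, 2, 3, 4 or 5, the edgeR adjusted p was 0.0572 to 0.0908. With both obese groups against lean the call was lost without lean library 2 (edgeR adjusted p = 0.0675) or lean library 5 (edgeR adjusted p = 0.0538). Summing the libraries of one label number ended it too, with log2 fold changes of −0.93 for colesevelam (edgeR adjusted p = 0.176) and −0.91 for both obese groups (edgeR adjusted p = 0.141); the vehicle value was −0.89 (edgeR adjusted p = 0.295). At 32936 counts a library, miR-375-3p kept 12 to 26 counts in colesevelam, 8 to 36 in vehicle and 13 to 55 in lean libraries. In this 1 random draw the log2 fold change against lean was −1.27 for colesevelam (edgeR adjusted p = 0.0113). For vehicle it was −1.07 (edgeR adjusted p = 0.0660).

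rno-miR-200a-3p, the neighbour of miR-200b-3p with the other family seed, was counted 1, 1, 1, 0, 1 and 0 times in colesevelam libraries 1 to 6. Vehicle libraries 1 to 6 held 0, 0, 0, 3, 7 and 1 counts, and lean libraries 1 to 6 held 3, 44, 14, 22, 9 and 15. No library reached the filter's 126 CPM, so it did not enter the edgeR fit. As CPM the lean libraries ran between 25.9 and 88.0, with a mean of 57.0 ± 19.9 (SD, n = 6). Colesevelam libraries ran up to 28.1 CPM and vehicle libraries up to 59.5 CPM; 1 colesevelam and 2 vehicle libraries lay above the lowest lean library. Pooled levels were 10.7 CPM with colesevelam (exact 95% Poisson interval 2.92 to 27.4), 26.3 CPM with vehicle (13.1 to 47.0) and 57.6 CPM in lean livers (47.2 to 69.6).

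The exact two-sided permutation test of mean CPM, adjusted over 4 comparisons, gave a difference from lean of −45.9 CPM with colesevelam (adjusted p = 0.00866). With vehicle the exact permutation test gave −37.6 CPM (adjusted p = 0.0289), and with both obese groups −41.7 CPM (adjusted p = 0.00323). For 6 against 6 libraries the smallest unadjusted p such a test can give is 0.00216. At the mean lean level the depth of the colesevelam libraries would have given 21.3 counts and that of the vehicle libraries 23.9, where 4 and 11 were counted. The vehicle call depended on which library was left out. Without vehicle library 1, 2, 3 or 6, or without lean library 6, the exact permutation test gave adjusted p = 0.0577 to 0.0693. With the libraries of one label number summed, which leaves 4 colesevelam, 5 vehicle and 4 lean values, the exact permutation test gave −51.9 CPM for colesevelam (adjusted p = 0.0381, from the smallest p that 4 against 4 can give, 0.0286) and −46.1 CPM for vehicle (adjusted p = 0.0317) against lean. That alternative was chosen after seeing the data.

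Thinned to 32936 counts a library, miR-200a-3p kept 0 to 1 count in colesevelam, 0 to 2 in vehicle and 0 to 5 in lean libraries. The difference from lean then passed in neither group alone, with adjusted p = 0.0866 for colesevelam and 0.167 for vehicle in the exact permutation test, and passed with both obese groups together (adjusted p = 0.0437).

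Between colesevelam and vehicle livers, the comparison the study was built on, no difference passed the test for any of the 3. For miR-200b-3p the log2 fold change was 0.26 ± 0.40 (95% interval −0.58 to 1.1, edgeR adjusted p = 0.781). For miR-375-3p it was −0.00 ± 0.39 (−0.82 to 0.81, edgeR adjusted p = 0.997). These intervals allow changes of up to 1.1 upward and 0.58 downward for miR-200b-3p, and of about 0.8 in either direction for miR-375-3p, on the log2 scale. miR-200a-3p averaged 11.1 ± 10.8 CPM with colesevelam and 19.5 ± 26.4 CPM with vehicle (SD, n = 6 each; exact permutation p = 0.470, the same after adjustment). For this miRNA 2 colesevelam and 3 vehicle libraries had 0 counts, so the test had few counts to go on. In this comparison edgeR called 7.14% of the 112 miRNAs higher and 3.57% lower with colesevelam. With the size factors the authors used, the value of miR-200b-3p was −0.17 and that of miR-375-3p −0.19, while the median of all 112 miRNAs was −0.36. Relative to that median they were at 0.19 and 0.17.

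**Figure D3:**
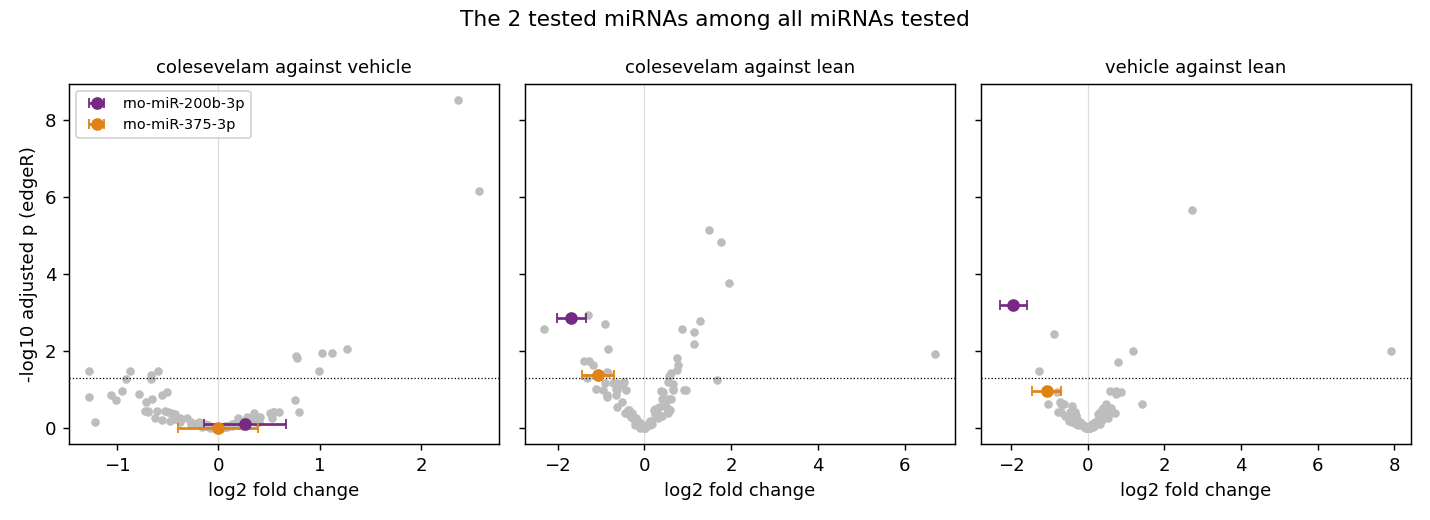
log2 fold change (horizontal) against −log10 of the edgeR adjusted p (vertical) of all 112 miRNAs tested, 1 panel per comparison, with miR-200b-3p and miR-375-3p in colour (horizontal bars are ± SE) and a dotted line at 0.05. miR-200b-3p lies at −1.68 and −1.94 in the panels against lean and at 0.26 between colesevelam and vehicle.

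The authors' deposited table gives other sizes for the same rows. It lists miR-200b-3p at a log2 fold change of −4.55 for colesevelam against lean (adjusted p 6.90e-12 in the authors' deposited table) and −4.38 for vehicle against lean (1.71e-08). For miR-375-3p the authors' deposited table gives −3.94 for colesevelam and −3.75 for vehicle, and for miR-200a-3p −5.11 and −3.41. Between colesevelam and vehicle the authors' deposited table gives −0.16 for miR-200b-3p, −0.19 for miR-375-3p and no value for miR-200a-3p. The authors' size factors were recovered from the deposited mean scaled counts. With them the median of all 112 miRNAs was −2.76 for colesevelam against lean and −2.38 for vehicle against lean. On that scale nearly every miRNA was lower than in lean livers. These factors did not follow depth: the deepest library, lean library 2 with 881450 counts, had a factor of 0.885. The shallowest, colesevelam library 1 with 32936 counts, had 1.090. Differences in depth were thus left in these values, which are not read as a fall of nearly all miRNAs. Relative to those medians miR-200b-3p was at −1.76 with colesevelam and −1.97 with vehicle, and miR-375-3p at −1.18 and −1.37. With TMM the medians were −0.08 and 0.01.

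The rest of the miR-200 family was scarce as well, with every other row below miR-200b-3p in mean level in all 3 groups. Of 9 family rows looked for, 8 are in the table, miR-200c-5p is not, and miR-200b-3p was the single one that passed the filter. With no filter, edgeR over all 401 rows called 4.49% lower in colesevelam than in lean livers, 1.25% lower in vehicle than in lean livers and 4.49% lower in both obese groups than in lean livers. The members of the family among them numbered 2, 1 and 3 of 8. miR-429, the third miRNA of the chromosome 5 cluster, had 10 counts with colesevelam, 17 with vehicle and 169 in lean livers. Its log2 fold change against lean was −1.57 ± 0.55 with colesevelam (edgeR adjusted p = 0.0555), −1.02 with vehicle (edgeR adjusted p = 0.387) and −1.30 for both obese groups (edgeR adjusted p = 0.0379). In the same fit miR-200a-3p was at −2.40 ± 0.71 with colesevelam (edgeR adjusted p = 0.0142) and −1.23 ± 0.58 with vehicle (edgeR adjusted p = 0.387). All 3 miRNAs of the chromosome 5 cluster thus had lower values than in lean livers in both obese groups. Of the vehicle values of these 3 miRNAs in this fit, that of miR-200b-3p alone passed. In the exact permutation test miR-200a-3p had passed with vehicle as well (adjusted p = 0.0289).

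The chromosome 4 cluster gave a mixed picture. miR-141-3p, which shares the seed of miR-200a-3p, had 13 counts with colesevelam, 16 with vehicle and 154 in lean livers, with log2 fold changes of −1.18 (edgeR adjusted p = 0.171) and −1.04 (edgeR adjusted p = 0.387). miR-200c-3p, which shares the seed of miR-200b-3p, had 11, 5 and 20 counts in colesevelam, vehicle and lean livers. It was at 1.08 ± 0.70 with colesevelam (edgeR adjusted p = 0.413) and 0.01 ± 0.80 with vehicle (edgeR adjusted p = 1.0), so neither value passed. The other arms held almost nothing: miR-200b-5p had 6 counts, miR-200a-5p 6 and miR-141-5p 2 in all lean libraries, and together they had 1 count in the 12 libraries of the obese groups.

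**Figure D4:**
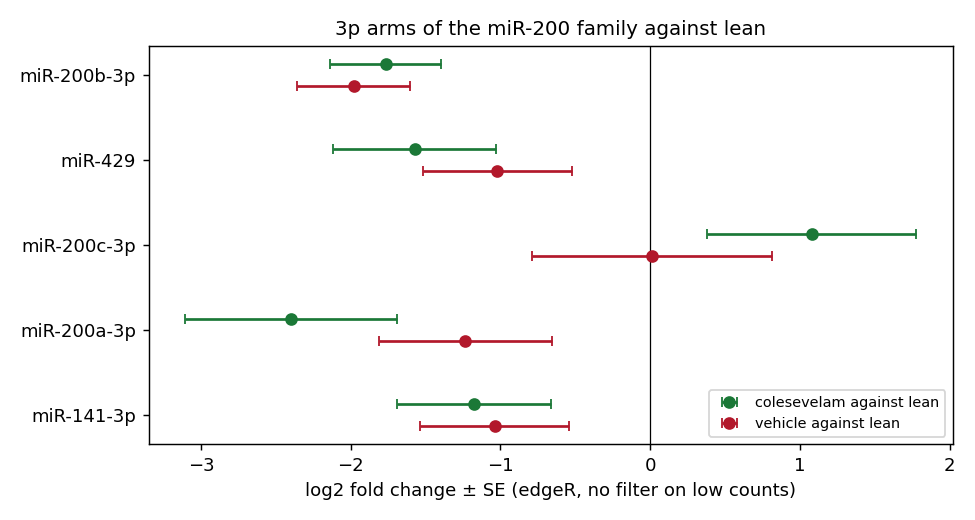
log2 fold change ± SE against lean (horizontal, edgeR with no filter on low counts) of miR-200b-3p, miR-429, miR-200c-3p, miR-200a-3p and miR-141-3p, with colesevelam above vehicle for each. Of the 5, miR-200c-3p alone has values at or above 0 (1.08 and 0.01), neither past the test.

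Summed by seed, the 3 family miRNAs that carry AATACTG stood at 151 ± 25.4 CPM with colesevelam, 129 ± 41.3 CPM with vehicle and 392 ± 105 CPM in lean livers (SD, n = 6 each). The lowest lean library had 205 CPM, above the highest colesevelam library at 186 CPM and the highest vehicle library at 196 CPM. Those highest libraries, colesevelam library 4 and vehicle library 3, held 7 and 6 counts of miR-200b-3p. There 1 count stands for 26.6 and 24.5 CPM, so 1 more count in either library would have made its group overlap with lean. Among the 112 single miRNAs tested, 2.68% lay lower in every colesevelam library than in any lean library, and 0.0% lower in every vehicle library than in any lean library. These shares are of single tested rows, while the sum also holds rows that did not pass the filter, so they are not a like background for it. miR-200b-3p alone overlapped with lean in both obese groups. The pair that carries AACACTG stood at 44.5 ± 19.1 CPM with colesevelam, 52.1 ± 55.5 CPM with vehicle and 130 ± 48.2 CPM in lean livers, and its ranges overlapped. miR-200a-3p made up 10.5% of the counts of miR-200a-3p and miR-200b-3p together with colesevelam (4 of 38, exact 95% binomial interval 2.94 to 24.8%), 25% with vehicle (11 of 44, 13.2 to 40.3%) and 15.3% in lean livers (107 of 699, 12.7 to 18.2%). These intervals overlap and cover counting error only. The ratio of miR-375-3p to miR-200b-3p counts had a median of 6.07 over the colesevelam libraries (3.50 to 11.3), 5.43 over the vehicle libraries (2.75 to 44.0) and 3.98 over the lean libraries (2.67 to 5.27), again with overlapping ranges.

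Markers of other cells did not all move with the miR-200 family. The 5 miRNAs listed for bile duct and other epithelium, which include miR-200a-3p and miR-200b-3p themselves, summed to 170 to 225 CPM in colesevelam, 74.5 to 278 CPM in vehicle and 399 to 652 CPM in lean libraries, with lean above both. None of the 5 was at 0 in every library. The leukocyte list, 3 of whose 6 miRNAs were tested, summed to 2360 to 4222 CPM in colesevelam, 1943 to 2766 CPM in vehicle and 2380 to 4558 CPM in lean libraries; 2 were lower and 1 higher than in lean livers with colesevelam, and 1 was lower with vehicle. Over all 112 miRNAs, edgeR called 9.82% lower and 11.6% higher with colesevelam and 2.68% lower with vehicle against lean. The mesenchymal list summed to 32633 to 62109 CPM in colesevelam, 34907 to 50232 CPM in vehicle and 33589 to 48403 CPM in lean libraries, and none of its 3 tested miRNAs was called in any comparison. The ranges of the hepatocyte, endothelial, erythroid and muscle lists overlapped between lean and both obese groups as well. Of the 6 hepatocyte miRNAs, all tested, miR-122-3p alone was called, lower than in lean livers with colesevelam (log2 fold change −0.85, edgeR adjusted p = 0.00883) and for both obese groups together (−0.57, edgeR adjusted p = 0.0449). The part of any cell type in the members' differences was not tested.

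Other epithelial miRNAs gave values on both sides of lean. Of 7 miRNAs on a wider epithelial list 6 are in the table and 4 were tested, miR-375-3p among them. Against lean miR-375-3p alone was called, lower with colesevelam and for both obese groups together but not with vehicle. Over all 112 miRNAs edgeR called 9.82%, 7.14% and 2.68% lower in those comparisons, in the same order. miR-31a-5p, found in many epithelia, averaged 1706 ± 315 CPM with colesevelam, 2704 ± 936 CPM with vehicle and 1958 ± 402 CPM in lean livers (SD, n = 6 each). Its log2 fold change was −0.20 with colesevelam (edgeR adjusted p = 0.540) and 0.47 with vehicle against lean (edgeR adjusted p = 0.246), and −0.67 ± 0.22 between colesevelam and vehicle (edgeR adjusted p = 0.0523). miR-203a-3p, a miRNA of squamous epithelium, was at 0.24 with colesevelam (edgeR adjusted p = 0.448) and 0.20 with vehicle against lean (edgeR adjusted p = 0.726). miR-203b-3p, transcribed antisense to miR-203a and so possibly sharing reads with it, was at 0.96 ± 0.44 with colesevelam (edgeR adjusted p = 0.106) and 0.72 ± 0.44 with vehicle (edgeR adjusted p = 0.410). miR-375-5p is not in the table. The untested miR-31a-3p had 5, 8 and 35 counts in colesevelam, vehicle and lean libraries, and miR-205 had 0, 1 and 7. With no filter, miR-31a-3p was at −0.70 with colesevelam (edgeR adjusted p = 0.688) and −0.21 with vehicle (edgeR adjusted p = 0.950) against lean. miR-205 was at −2.58 (edgeR adjusted p = 0.352) and −0.62 (edgeR adjusted p = 0.849).

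Pancreatic and endocrine miRNAs other than miR-375-3p were near the limit of counting. Of 11 looked for, 7 are in the table and miR-375-3p alone was tested. miR-217-5p, a miRNA of pancreatic acinar cells, had 0 counts in all colesevelam libraries, 4 in all vehicle libraries and 3 in all lean libraries. miR-7a-5p, abundant in islets, had 4, 5 and 12 counts in colesevelam, vehicle and lean libraries, miR-216a-5p had 1, 2 and 3, and miR-9a-5p had 1, 0 and 15. The other 2, miR-184 and miR-129-5p, had at most 1 count in a group.

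Over the 18 libraries, the tested miRNAs whose levels ranked most like those of miR-200b-3p were let-7d-5p (Spearman correlation 0.53), miR-375-3p (0.52), miR-28-5p (0.50), miR-423-5p (0.45) and miR-186-5p (0.38). For miR-375-3p they were miR-676 (0.72), miR-28-5p (0.68), miR-30a-3p (0.68), miR-92a-3p (0.64) and miR-125b-2-3p (0.63). These values describe all libraries together, so they hold the differences between groups and in depth as well as the spread within groups. miR-28-5p stood in both lists and was lower than in lean livers with colesevelam at −1.30 (edgeR adjusted p = 0.00117), while its vehicle value of −0.43 did not pass (edgeR adjusted p = 0.383). miR-423-5p was at −2.31 with colesevelam (edgeR adjusted p = 0.00265) and −1.03 with vehicle (edgeR adjusted p = 0.234). For both obese groups against lean miR-28-5p was at −0.86 and miR-423-5p at −1.67 (edgeR adjusted p = 0.00844 for each).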

How the data were processed

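The data are 18 small RNA libraries of rat liver, 6 a group. Estimated counts of 401 mature miRNAs were deposited by the authors without scaling, and 297 values in 42 rows hold fractions, with no reason stated. Bowtie 1.1.2 and DESeq2 1.18.1 were used, per the submitters' processing notes; how reads were trimmed, aligned to which build and counted is not given in the sources used here. According to the labels' protocols, libraries came from total RNA with a TruSeq RNA kit, and how small RNA was selected is not stated. The deposited table holds, per the file headers, means of scaled counts, log2 fold changes and p-values of the authors' DESeq2 comparisons. No per-sample column was left unmatched to a sample (0).

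Counts were rounded. filterByExpr (minimum count 10, minimum total 15) kept 112 of 401 rows, which were scaled by TMM and went into 1 fit over all libraries with edgeR's robust quasi-likelihood F test (edgeR 4.0.16, R 4.3.3), with Benjamini-Hochberg adjustment over all rows tested and a threshold of 0.05. The script was tested on simulated data. The biological coefficient of variation was 36.2%. miR-200a-3p did not pass the filter and was compared by exact two-sided permutation tests of CPM. Floors use 3 counts, and 95% Poisson and binomial intervals are exact; both cover counting error only, and PCR reads that carry no molecular identifier are not separate molecules. Nothing states that libraries are separate animals, so the p-values reflect only how these libraries vary, which may be technical. Sequences come from the deposited table and RefSeq (GRCr8).

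The members, lists, tests and alternatives were chosen with earlier results of these data known. Named in full are the 3 members; in short, all rows of the miR-200, wider epithelial and pancreatic lists and, for each member tested, the 5 miRNAs with the highest Spearman correlation. Alternatives were other scalings, filters, tests (DESeq2 1.42.0, limma-voom 3.58.1), thinning, summing libraries of one label number, a replicate block, fits with only the groups compared and leaving out each library. The replicate numbers of the titles did not pair the samples.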

Additional observations from a re-analysis of the deposited data

Results flagged for a closer look

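Lean library 6 was the lowest of the lean libraries for miR-375-3p, at 329 CPM against 1197 to 1630 CPM in the other 5. Its gap to the next library was 0.667 of the group's range, above the limit of 0.625 for 6 libraries. With 9 groups of libraries looked at, chance alone gives such a gap in about 1 of 20 groups. The same library was the lowest lean one for miR-200b-3p (123 CPM) and the highest lean one for miR-200a-3p (88.0 CPM), both within that limit. It held 171316 counts in all.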

How the results depend on the processing

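Against lean, miR-200b-3p kept its direction and its call under every alternative that could test it and without any single library. No value that passed the test changed sign. Among values that did not pass, miR-200b-3p between colesevelam and vehicle went to −0.17 with the authors' size factors, and miR-375-3p there ran from −0.19 to 0.16. Leaving out 1 library gave −1.86 to −1.55 for colesevelam against lean, −2.15 to −1.78 for vehicle against lean, 0.09 to 0.49 for colesevelam against vehicle and −1.97 to −1.70 for both obese groups against lean. For miR-375-3p the ranges were −1.27 to −0.90, −1.33 to −0.91, −0.16 to 0.27 and −1.27 to −0.98, in the same order, and for miR-200a-3p −2.88 to −2.09, −2.32 to −1.29, −1.33 to −0.04 and −2.34 to −1.73. The number of miRNAs called ran from 17 to 32, 5 to 8, 7 to 14 (7 without vehicle library 6) and 9 to 17 (9 without lean library 2). For miR-375-3p in colesevelam against lean the call was lost with upper-quartile factors (−0.96, adjusted p = 0.107), a filter of 50 CPM (−0.91, 0.0737), limma-voom (−0.96, 0.0839), libraries of one label number summed (−0.93, 0.176) and the replicate block (−1.01, 0.113). In vehicle against lean it was gained with DESeq2 size factors (−1.16, 0.0383), the authors' size factors (−3.75, 2.20e-07), no filter (−1.14, 0.0185) and the DESeq2 Wald test (−1.16, 0.0116). For both obese groups it was lost with upper-quartile factors (−0.98, 0.0780), summed libraries (−0.91, 0.141) and the replicate block (−1.05, 0.0717). miR-200a-3p lost its call after thinning (−2.70 for colesevelam, −1.70 for vehicle against lean) and, for vehicle, with no filter in edgeR (−1.23). With the authors' size factors 109 miRNAs were called in colesevelam against lean, 110 in vehicle against lean, 110 for both obese groups and 2 between colesevelam and vehicle. Between colesevelam and vehicle 6 were called with upper-quartile factors and 7 each with no filter, summed libraries and the replicate block, against 12. For both obese groups 9 were called with upper-quartile factors, 25 with no filter and 5 with summed libraries, against 14. The cause was not tested, except that summed libraries leave fewer samples. Library totals alone moved the median of all miRNAs by −0.11 between colesevelam and vehicle, and upper-quartile factors by 0.10 in colesevelam against lean. The replicate block had no basis in the design: over 18 pairs of same-numbered libraries the correlation of deviations ran from −0.61 to 0.60, and 6 were over 0.1. miR-200b-3p could not be tested by edgeR on thinned counts, nor between colesevelam and vehicle in a fit of those groups alone, because it did not pass the filter there. Depth limits miR-200a-3p most, with at most 7 counts in any library of the obese groups.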
